A study of Arabidopsis thaliana with 23 samples.

Results

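The 20 probe sets described here had a lower signal after each of 3 auxin inhibitors than in mock-treated Arabidopsis seedlings, while after 1 µM auxin it lay within a wider limit on either side of mock. They are 20 of the 22810 probe sets on the array. They were chosen from measured values, on the scale L, the group mean of log2(signal + 7.56). A member had a mean signal of 100 or more over the 23 arrays. Its L was lower by 0.35 or more with kynurenine, with PEO-IAA and with PPBo, each against the mock of the same replicate numbers. Its L with 1 µM indole-3-acetic acid (IAA) lay within 0.5 of mock. Of 14372 probe sets at that signal, 338 were past the limit with kynurenine, 556 with PEO-IAA and 888 with PPBo, and 74 with all 3. Of these 74, L with 1 µM IAA was more than 0.5 above mock in 40 and more than 0.5 below mock in 13, and lay within 0.5 in 21. Of the 21, the probe set of WAG2, a protein kinase related to PINOID, was set aside by name, which left 20. The limits turned upward (higher by 0.35 or more with all 3 inhibitors, within 0.5 with IAA) took 21 probe sets before any was set aside by name.

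Auxin is made from tryptophan in a pair of steps. TAA1 and its relatives form indole-3-pyruvate, and the YUCCA enzymes turn it into IAA, the main natural auxin. IAA joins the TIR1/AFB receptors to Aux/IAA repressors, which are then degraded, so that ARF transcription factors can act on auxin-induced genes. Kynurenine inhibits TAA1, PPBo inhibits the YUCCA enzymes and PEO-IAA is an IAA derivative that keeps the receptors from acting, so the 3 compounds hit different points of the pathway.

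All 9 groups were whole seedlings of the Col-0 ecotype, kept 6 or 7 days on agar and 1 day in shaken liquid medium and then treated for 3 h, each RNA sample on its own Affymetrix ATH1 array. Replicates 1 to 3 comprised 30 µM kynurenine, 10 µM PEO-IAA, 10 µM PEO-IAA plus 1 µM IAA, 1 µM IAA and mock, with 3 arrays each. Replicates 4 and 5 comprised 10 µM PPBo, 10 µM PPBo plus 1 µM IAA, 100 nM IAA and mock, with 2 arrays each. No label says that replicates came from separate cultures. A p-value here therefore stands for the spread among these arrays, possibly a technical one. In RNA of whole seedlings, fewer cells of a type and less RNA per cell cannot be told apart. No root organ marker and 1 of 17 shoot photosynthesis genes, LHCB4.1, had a named and tested probe set, with signals of 8875 to 17616 for LHCB4.1, so root tissue could not be checked this way.

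The third 1 µM IAA array stood apart. RNA integrity, read as the ratio of the 3′ to the 5′ GAPDH probe set, was at 24.4 there, while the other 22 arrays had ratios of 1.19 to 2.05. Its correlations with them had a median of 0.88, and theirs of 0.949 to 0.969. Medians of the members' differences that rest on this array are given below with and without it. The SEs and the main limma p-values come from a shared fit that includes it.

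Of the 20 members, 8 named a gene and 12 were unnamed here and are given by probe set. The 8 named genes lay 2 each on chromosomes 1, 3, 4 and 5, and the nearest pair, AT5G45670 and AT5G48240, lay 323 gene positions apart. AT4G22730 encodes a leucine-rich repeat receptor-like kinase and AT4G11900 an S-locus lectin receptor-like kinase. AT1G12290 encodes a disease resistance protein of the CC-NBS-LRR class, a family of intracellular immune receptors. AT5G45670 encodes a GDSL-type esterase or lipase, and AT3G55170 a protein of the large ribosomal subunit of the L29 family. AT3G45160 encodes a putative membrane lipoprotein. AT5G48240 is protein-coding, and AT1G62860 is listed as a transcribed pseudogene.

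The members were mostly dim. Their mean signals ran from 101 to 2047 with a median of 189, and 8 of 20 lay under 150. Their residual SD on the log2 scale had a median of 0.31, against 0.23 over all probe sets tested. With no detection calls used, a signal above background cannot be told from one at background.

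The differences that chose the members are a description and were not tested. With kynurenine they ran from -0.80 to -0.35 with a median of -0.47, with PEO-IAA from -3.67 to -0.36 with a median of -0.52, and with PPBo from -1.68 to -0.39 with a median of -0.71. No overlap between treated and mock arrays was seen for 15 of 20 members with kynurenine, where 3.87% of all probe sets tested were lower without overlap. The arrays lay apart for 16 members with PEO-IAA (6.04% of all) and 19 with PPBo (20.9% of all). Kynurenine, PEO-IAA and mock arrays of the same number varied together, so they can be read as pairs. The SEs given for kynurenine and PEO-IAA against mock come from group means and do not use the pairs. In these pairs, 16 members were lower with kynurenine in all 3 (16.1% of all) and 18 with PEO-IAA in all 3 (18.8% of all). These counts follow from the choice of members and nothing is read from them. The 3 probe sets just inside the limit had a smallest difference of -0.36 (253402_at), -0.36 (AT3G45160) and -0.352 (261717_at). Those just outside were AT3G18560 at -0.348 and 264900_at and 249474_s_at, also at -0.348.

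**Figure D1:**
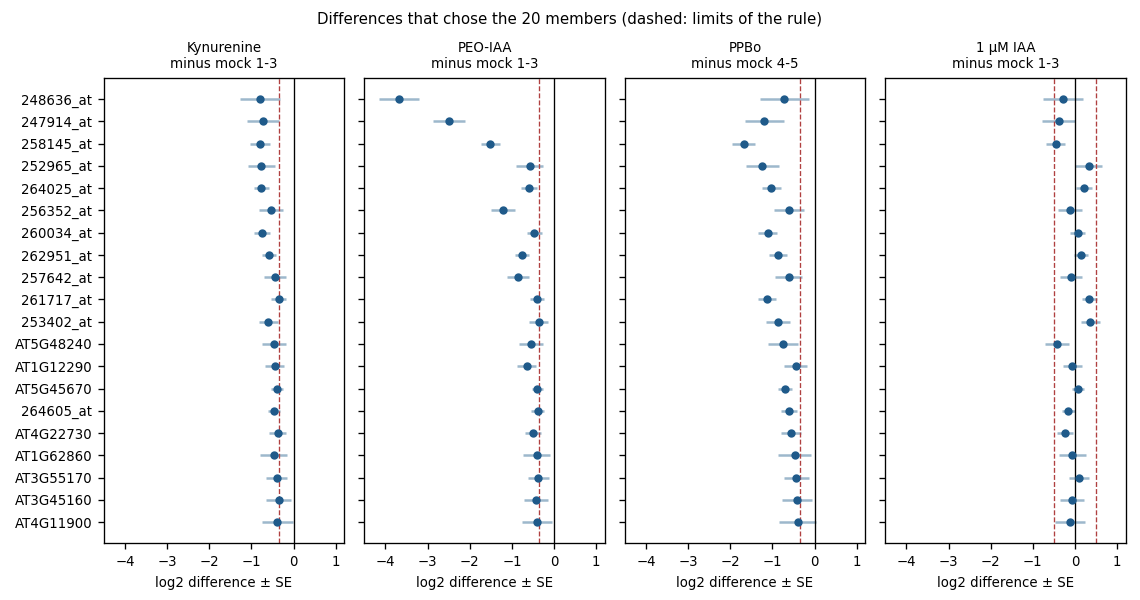
Log2 difference ± SE (shared fit) for each of the 20 members, in rows ordered by the mean of the 3 inhibitor differences, with 1 panel per contrast and the limits of the rule as dashed lines. The members reach -3.67 with PEO-IAA, -1.68 with PPBo and -0.80 with kynurenine, and the 9 members in the lowest rows lie between -0.47 and -0.36 with kynurenine.

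AT5G45670, the esterase or lipase gene, had signals of 407, 446 and 472 with kynurenine and 402, 435 and 482 with PEO-IAA, against 506, 657 and 583 in mock. With PPBo it had 391 and 388, against 638 and 632 in mock. All inhibitor arrays lay below all mock arrays of their set, with log2 differences of -0.39 ± 0.14, -0.39 ± 0.14 and -0.70 ± 0.17 (SE). AT3G45160, the putative membrane lipoprotein gene, had 729, 742 and 868 with kynurenine and 744, 716 and 753 with PEO-IAA, against 948, 997 and 1050.0 in mock. The PPBo arrays had 936 and 978, against 1280.0 and 1262 in mock. It was the brightest of the 8 named members, and its inhibitor and mock arrays did not overlap in any of the 3 contrasts.

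The receptor-like kinase gene AT4G22730 had 128, 101 and 121 with kynurenine and 138, 110.1 and 77.2 with PEO-IAA, against 162, 163 and 136 in mock. With PPBo it had 66.2 and 78.3, against 93.0 and 130.0 in mock. The highest PEO-IAA array exceeded the lowest mock array, while kynurenine and PPBo arrays lay apart from mock. The lectin receptor-like kinase gene AT4G11900 had 73.2, 135 and 158 with kynurenine and 72.3, 143 and 145 with PEO-IAA, against 112, 232 and 141 in mock. Signals of AT4G11900 with PPBo were 116 and 84.0, against 99.8 and 175 in mock. It was the 1 member whose arrays overlapped with mock under all 3 inhibitors, and its differences of -0.38, -0.40 and -0.39 were each close to their SE of 0.36, 0.36 and 0.44.

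AT1G12290, the immune receptor gene, had 88.5, 108 and 109 with kynurenine and 67.2, 108 and 90.3 with PEO-IAA, against 97.8, 185 and 153 in mock. Within pairs of the same number it was lower each time, although the groups overlapped. The PPBo arrays had 92.0 and 68.6, against 112 and 110.5 in mock. AT3G55170, the ribosomal protein gene, had 451, 448 and 374 with kynurenine and 416, 432 and 445 with PEO-IAA, against 491, 747 and 483 in mock. Its mock mean of 574 ± 150 (SD, n = 3) rested on the second mock array, which held 747. PPBo gave 399 and 409, against 576 and 519.5 in mock.

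AT5G48240 had 698, 562 and 359.6 with kynurenine and 571, 607 and 349 with PEO-IAA, against 733, 709 and 723 in mock. PPBo gave 323 and 804, against 863 and 859.5 in mock. Treated arrays thus spread widely while mock arrays agreed closely, and the PPBo difference of -0.75 ± 0.35 rested on the first of the PPBo arrays. The pseudogene AT1G62860 had 125, 119 and 63.4 with kynurenine and 112, 127 and 75.2 with PEO-IAA, against 146, 142 and 129 in mock. The PPBo arrays had 81.6 and 57.4, against 92.2 and 104 in mock. No inhibitor array of AT1G62860 reached a mock array of its set.

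The 11 members with the lowest mean of the 3 inhibitor differences were all unnamed, and those given here were singled out after their values were seen. The lowest was 248636_at, with 3.67, 19.2 and 2.19 with PEO-IAA, against 204, 223 and 117 in mock, a difference of -3.67 ± 0.48. On 2 of the PEO-IAA arrays the signal was thus below the added constant of 7.56, so the log2 difference understates the ratio of signals. The same probe set was at 124, 56.3 and 132 with kynurenine, and at 262 and 207 with PPBo, against 341 and 442 in the PPBo set's mock. Its differences with kynurenine and PPBo, -0.79 and -0.72, were thus far smaller than with PEO-IAA, though that contrast between compounds was not tested. Next was 247914_at, at 32.2, 8.44 and 17.3 with PEO-IAA, against 140.5, 172 and 97.7 in mock.

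The brightest member, 262951_at, had 1272, 1666 and 1791 with kynurenine and 1290.0, 1451 and 1409 with PEO-IAA, against 2336, 2602 and 2117 in mock. With PPBo it had 1176 and 1190.0, against 2044 and 2292 in mock. No inhibitor array of 262951_at reached a mock array of its set, with differences of -0.58 ± 0.17, -0.76 ± 0.17 and -0.87 ± 0.21. Probe set 258145_at had 143, 184 and 134 with kynurenine, 80.8, 130.3 and 68.8 with PEO-IAA and 337, 259.9 and 225 in mock. With PPBo it had 102 and 67.7, against 242 and 331 in mock, which gave the largest PPBo difference among the members, -1.68 ± 0.28. Probe set 264025_at had 112, 151 and 177 with kynurenine and 163, 200.2 and 133 with PEO-IAA, against 243, 252 and 255 in mock. The mock arrays of 264025_at varied little, and no inhibitor array reached them.

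**Figure D2:**
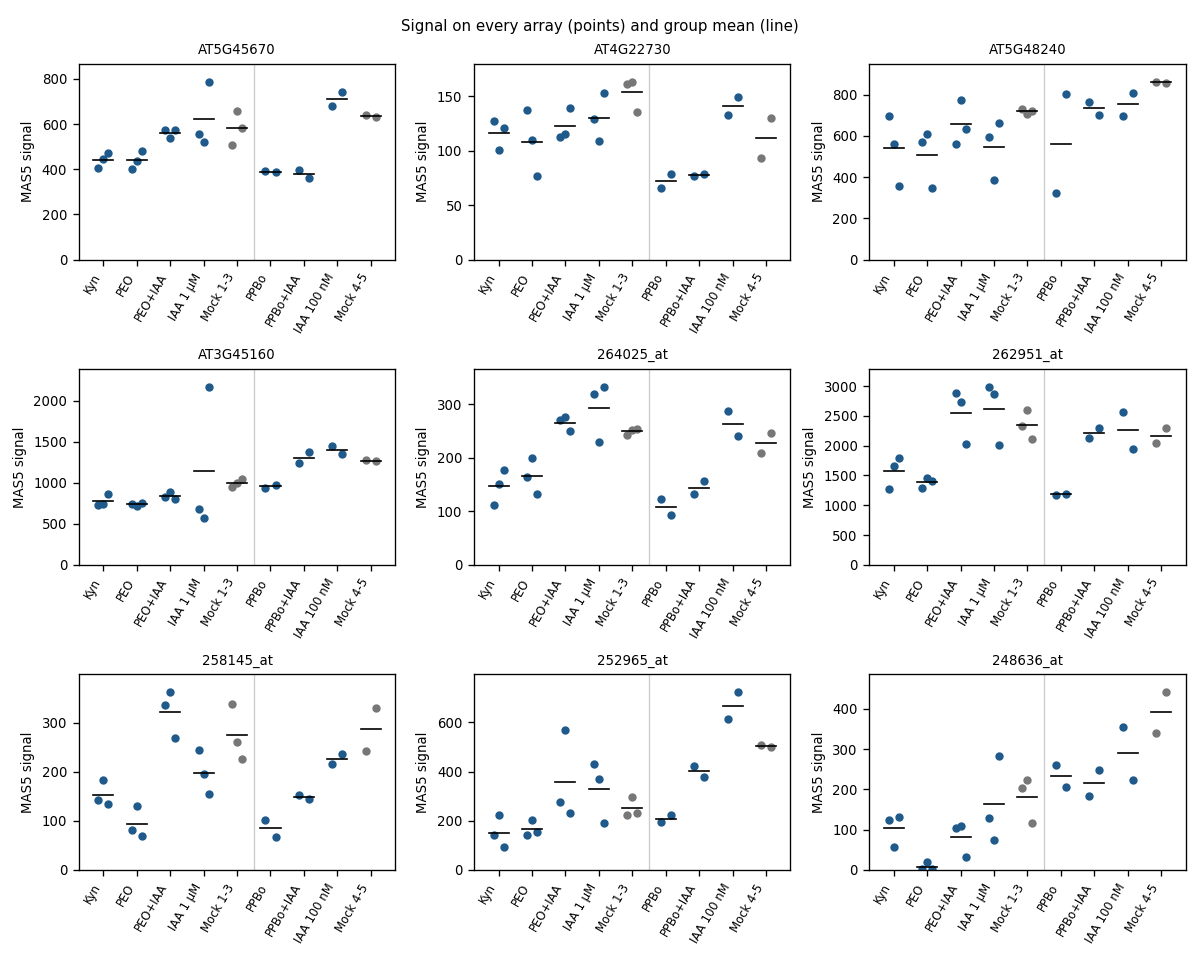
MAS5 signal (linear axis from 0) of 9 members on each array, as points with a line at the group mean, for replicates 1 to 3 left and replicates 4 and 5 right of the grey line, with mock in grey. AT5G45670 stays at 359 to 398 with PPBo plus IAA, while 262951_at lies at 2135 and 2304 there, against 1176 and 1190.0 with PPBo alone.

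Whether IAA left these genes at the mock level depended in part on the third IAA array. With all 3 arrays the differences from mock ran from -0.46 to 0.36 with a median of -0.07, within the limits of the rule. At -0.35 or less, the limit that the rule set for the inhibitors, were 3 members (13.9% of all), namely 258145_at at -0.46, AT5G48240 at -0.43 and 247914_at at -0.39. Without the third array they ran from -0.77 to 0.67 with a median of -0.17, and 16 of the 20 stayed within 0.5. The 4 that did not were 248636_at at -0.77, AT3G45160 at -0.67, AT5G48240 at -0.58 and 252965_at at 0.67. AT3G45160 had 677, 575 and 2168 with 1 µM IAA, against 948, 997 and 1050.0 in mock. Its first pair of IAA arrays lay below all mock arrays and the third far above them. AT3G55170 was alike in this, with 463, 424 and 1093 against 491, 747 and 483 in mock. Probe set 252965_at had 431, 369 and 192, against 224, 298 and 230.1 in mock, the third array being the lowest IAA array. The third IAA array was the highest of all 23 arrays for 6 of 20 members, as it was for 26.6% of all probe sets tested. It was the lowest for 0 of 20, against 24.7% of all. Members were chosen as low with the inhibitors and near mock with IAA, so nothing is read from these counts. For AT5G48240 all 3 IAA arrays, at 593, 388 and 661, were below the mock arrays, the 1 member lower without overlap (7.94% of all). Its difference of -0.43 ± 0.29 with IAA was close to the -0.46 ± 0.29 with kynurenine. The 1 member higher without overlap (7.97% of all) was 261717_at, at 314, 332 and 317 with IAA, against 249.7, 252 and 252 in mock.

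**Figure D3:**
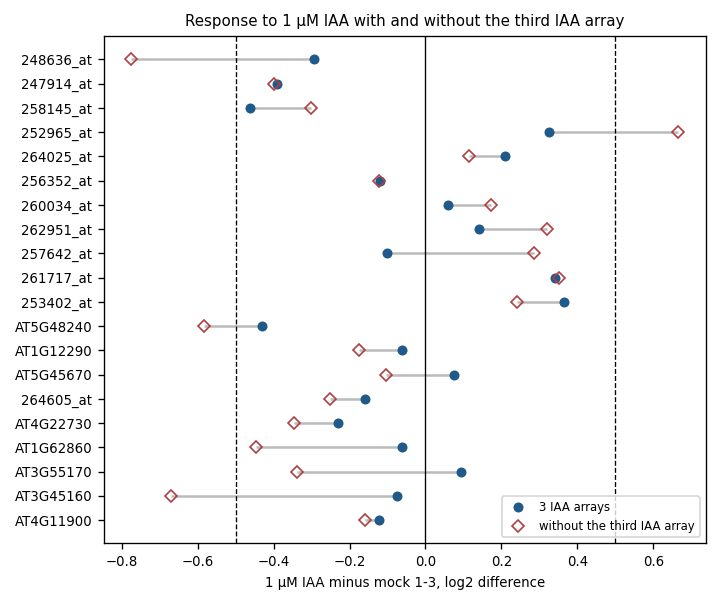
Log2 difference of 1 µM IAA minus mock for each member with 3 IAA arrays (filled circles) and without the third (open diamonds), with dashed lines at -0.5 and 0.5. Without that array 248636_at, AT3G45160 and AT5G48240 lie below -0.5 and 252965_at lies above 0.5.

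At 100 nM, in replicates 4 and 5, IAA gave member differences from -0.63 to 0.40 with a median of 0.13, against 0.02 over all probe sets tested. Arrays did not overlap with mock for 12 members, 6 lower (20.3% of all were lower) and 6 higher (24.3% of all were higher). Both shares are close to those of all probe sets with 2 arrays a group. This contrast shares its mock arrays with the PPBo contrast of the rule and was not tested. AT5G45670 had 678 and 742 with 100 nM IAA, against 638 and 632 in mock. AT4G22730 had 133 and 149, against 93.0 and 130.0 in mock. These are examples of the 6 higher members. Of the 6 lower, 247914_at had a difference of -0.63 ± 0.47 with 100 nM IAA and -0.39 ± 0.38 with 1 µM IAA. For 258145_at these were -0.32 ± 0.28 and -0.46 ± 0.23.

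PPBo plus 1 µM IAA against 100 nM IAA was tested, since the rule used no difference that involves these arrays. They did enter the mean signal over 23 arrays, which 247914_at passed with 101, AT1G12290 with 105.1 and AT1G62860 with 105.5. The groups differ in PPBo and in the IAA dose, whose parts cannot be told apart here. Of 20 members 19 were lower with PPBo plus IAA, as were 51.1% of the 15922 probe sets tested. The 19 include AT3G55170 at -8.9e-06 and 262951_at at -0.01. With quantile normalization 18 were lower, and with an array of the contrast left out 17 or 18. The members' median was -0.48, against -0.0044 over all, with a range of -0.89 to 0.03. The 8 named members had a median of -0.27. Arrays did not overlap for 13 members, all lower, where 21.8% of all probe sets were lower without overlap. By limma, 29 probe sets passed over the whole array, 16 lower (0.100% of all) and 13 higher (0.0816% of all).

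Of the 20 members, 1 passed that test. AT5G45670 fell to signals of 398 and 359 with PPBo plus IAA, against 678 and 742 with 100 nM IAA, a log2 difference of -0.89 ± 0.17 (limma adjusted p = 0.0294). Its means were 379 ± 27.9 with PPBo plus IAA and 709.9 ± 45.4 with 100 nM IAA (SD, n = 2 each), so that the arrays of the groups lay far apart. The call ended whichever of the 4 arrays was left out, with limma adjusted p-values of 0.166 to 0.518 and differences of -0.97 to -0.82. At an unadjusted limma p under 0.05 there were 7 members, all lower, where 2.25% of all probe sets were lower at that level.

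Those 7 included 264025_at, at 133 and 156 with PPBo plus IAA, against 287 and 239.9 with 100 nM IAA, a difference of -0.83 ± 0.22 (limma adjusted p = 0.301). The kinase gene AT4G22730 had 76.5 and 78.7, against 133 and 149 with 100 nM IAA, a difference of -0.80 ± 0.23 (limma adjusted p = 0.460). Probe set 264605_at had 229 and 176, against 286 and 319, a difference of -0.57 ± 0.19 (limma adjusted p = 0.632). None of these 3 passed over all genes, while with array quality weights each did, with limma adjusted p-values of 0.00773 for 264025_at, 0.0191 for AT4G22730 and 0.0438 for 264605_at. With the arrays of replicates 4 and 5 alone 3 members passed, namely AT5G45670, 264025_at and 252965_at, all lower, and 256 probe sets passed in all.

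For 4 members taken here as examples the groups overlapped in this contrast. AT3G55170 had 497 and 491 with PPBo plus IAA, against 479 and 509.9 with 100 nM IAA. Probe set 262951_at had 2135 and 2304, against 2565 and 1950.0, a difference of -0.01 ± 0.21. AT5G48240 had 763 and 704, against 699 and 809.7, and AT3G45160 had 1237 and 1375, against 1445 and 1350.0. Each of these differences was within the spread of the arrays. AT4G11900 had 82.8 and 95.9, against 150.2 and 140.3, without overlap, with a difference of -0.66 ± 0.44 that did not pass (limma adjusted p = 0.99996).

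**Figure D4:**
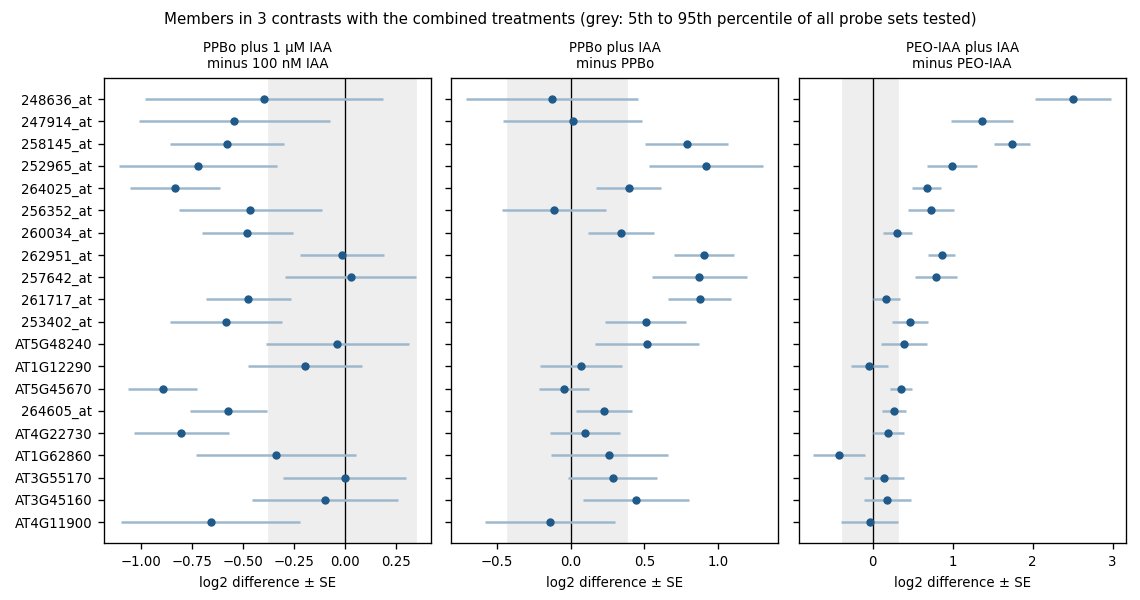
Log2 difference ± SE (shared fit) of each member in 3 contrasts with the combined treatments, with the 5th to 95th percentile of all probe sets tested in grey. Against 100 nM IAA, 19 of 20 members lie below 0 with PPBo plus IAA, AT5G45670 lowest at -0.89; in the other panels most members lie above 0, against inhibitor arrays on which they had been chosen as low.

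The members' levels with IAA beside each inhibitor are described from the combined treatments, without a test, since the inhibitor and mock arrays had entered the choice of members. With PPBo plus IAA, 16 of 20 members were higher than with PPBo alone (50.0% of all), with a median of 0.31, and 10 were higher without overlap (20.1% of all). Against mock, 17 were still lower without overlap (20.3% of all), with a median of -0.38. With PEO-IAA plus IAA, 17 of 20 were higher than with PEO-IAA alone (51.4% of all), with a median of 0.37, and 9 were higher without overlap (5.75% of all). Of the members 11 were higher in all 3 pairs of the same number (16.8% of all). Against mock, 5 were lower without overlap (5.45% of all), with a median of -0.20. Members were chosen as low on the inhibitor arrays and higher on the mock arrays. That choice alone favours a rise from the inhibitor arrays and a deficit against mock, so nothing is read from these counts and medians.

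Single members differed in their values with the combined treatments. Probe set 262951_at had 2135 and 2304 with PPBo plus IAA and 2879, 2727 and 2025 with PEO-IAA plus IAA, and so lay at the mock level beside either inhibitor, with differences from mock of 0.04 ± 0.21 and 0.10 ± 0.17. AT3G45160 lay at 0.04 ± 0.36 from mock with PPBo plus IAA. AT5G45670 had 576, 537 and 572 with PEO-IAA plus IAA, against 506, 657 and 583 in mock. With PPBo plus IAA it had 398 and 359, against 391 and 388 with PPBo alone and 638 and 632 in mock. It thus lay near mock beside PEO-IAA and at the PPBo level beside PPBo, and the difference between these responses was not tested. Probe set 264025_at was at 270.3, 277 and 249.5 with PEO-IAA plus IAA, against 243, 252 and 255 in mock. With PPBo plus IAA it had 133 and 156, against 208 and 247 in mock.

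Some members stayed low beside PEO-IAA. The pseudogene AT1G62860 had 100.2, 88.3 and 46.1 with PEO-IAA plus IAA, below PEO-IAA alone in each pair, against 146, 142 and 129 in mock. AT1G12290 had 70.0, 95.1 and 89.5, against 97.8, 185 and 153 in mock and 108, 141 and 159 with 1 µM IAA. Its PEO-IAA plus IAA arrays lay below all IAA and all mock arrays. Probe set 248636_at had 105, 108 and 33.3, above all PEO-IAA arrays and below all mock arrays. In contrast 258145_at had 336, 362 and 268 with PEO-IAA plus IAA, above the 244, 195 and 154 with IAA alone. Over the members, PEO-IAA plus IAA minus 1 µM IAA had a median of -0.20, with 15 of 20 lower, where 49.8% of all probe sets were lower. The 1 µM IAA arrays had also entered the choice of members, through the limit of 0.5. This contrast is thus a description and was not tested. Arrays did not overlap for 2 lower members (4.98% of all), AT1G12290 and 261717_at. Without the third IAA array the median was -0.24 and 13 of 20 were lower (50.5% of all), 3 without overlap (10.0% of all), namely AT1G12290, 260034_at and 261717_at. AT5G45670, AT4G22730, AT3G55170 and AT3G45160 then lay above 0, at 0.06, 0.04, 0.10 and 0.42, where they were at -0.12, -0.08, -0.33 and -0.18 with all 3 IAA arrays. Probe sets 252965_at and 257642_at then lay below 0, at -0.26 and -0.36, where they were at 0.08 and 0.03. The values of AT1G12290 and 258145_at were -0.52 and 0.54 without that array, and -0.63 and 0.70 with it.

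None of the 8 named members was on the list of early auxin-induced genes or on that of root hair genes, and the 12 unnamed ones could not be looked up. For the tested genes of both lists the rule fixed this. The 7 early auxin-induced genes tested lay 1.35 (LBD16) to 5.50 (GH3.3) above mock with 1 µM IAA, past the limit of 0.5. The 2 root hair genes tested were left out by name. Nothing is read from the absence. Of 12 early auxin-induced genes 7 were tested, and 0 passed in PPBo plus IAA against 100 nM IAA. Their list median was -0.07 in that contrast, where the members had -0.48. The 7 ran from -0.59 (IAA29 and HAT2) to -0.03 (GH3.5). IAA29 and HAT2 thus lay below the members' median, so a drop of that size was not particular to the members. Against mock the list median was 2.73 with 1 µM IAA and 1.86 with 100 nM IAA, where the members had -0.07 and 0.13. The members' -0.07 follows from the rule, which kept 1 µM IAA within 0.5 of mock. Their 0.13 shares its mock arrays with the rule, so nothing is read from either gap. GH3.3, which conjugates IAA to amino acids, was at 4.24 with PPBo plus IAA against mock, and HAT2, a homeodomain factor, at 0.38. Of 26 root hair genes the expansins EXPA7 and EXPA18 were tested, at -0.38 and -0.76 with PPBo plus IAA against 100 nM IAA, and neither passed (limma adjusted p = 0.99996 and 0.850). Both are among the genes that the rule leaves out by name.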

How the data were processed

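Whole-seedling RNA of 23 samples was hybridised, 1 sample per array, per the labels. The deposited intensity values are linear probe set signals of the MAS5 algorithm (no version named), per the submitters' processing notes. Their 2% trimmed mean was 500.04 to 500.05 on every array, so no scaling was added. Detection calls were not used here. The number of arrays limits the precision.

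The 64 control probe sets were set aside. The constant of 7.56 is the 10th percentile over the table. It makes differences of dim probe sets on the log2(signal + 7.56) scale smaller than those of the signals. Probe sets above the 30th percentile of the mean (15922) were tested. A limma fit (version 3.58.1, R 4.3.3; lmFit, eBayes with a trended prior) held 9 group means over 23 arrays with 14 residual degrees of freedom, and p-values were adjusted by Benjamini-Hochberg. All SEs come from it. They thus include the spread of the third 1 µM IAA array and take no account of same-numbered pairs. In simulated data for PPBo plus IAA minus 100 nM IAA it recovered 94% of changes of 2 on the log2 scale and 63% of changes of 1. Percentages of all probe sets are over the 15922.

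Members, gene lists and the naming rule were all chosen with earlier results of these data known. The naming rule took named members by their mean inhibitor difference, by the tested contrast and by the return with IAA, members of families, and probe sets next to the limit; the probe sets with no gene name fall outside it. Names came from the platform annotation, updated to the TAIR10.1 gene table, and 13436 probe sets matched it with 1 gene. Same-numbered mock, kynurenine, PEO-IAA and PEO-IAA plus IAA arrays deviated together (r of 0.303 to 0.635 across probe sets), which pairs them; the pairing comes from the data.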

Additional observations from a re-analysis of the deposited data

How the results depend on the processing

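PPBo plus IAA against 100 nM IAA called 29 probe sets and 1 member. The counts were 256 and 3 with the arrays of replicates 4 and 5 alone, 252 and 3 with the 2 groups alone, and 279 and 4 with array quality weights, the 4 being AT5G45670, 264025_at, AT4G22730 and 264605_at. They were 45 and 1 with the replicate number as a block and 44 and 1 with the third IAA array kept out of the shared spread. With that array kept out, AT5G45670 had a limma adjusted p of 0.00162, against 0.0294 with it. Same-numbered arrays of this contrast correlated at only 0.0622 and were not read as pairs. With 2 arrays per group this is the same value for both numbers, so it cannot show whether they shared more than a number. Leaving out each array of the contrast gave 8 to 13 probe sets and 0 members, with 4 to 5 members at an unadjusted limma p under 0.05. The lone array left in a group is there assumed to vary like the other groups. The other 4 alternatives (pseudocount, both filters and quantile normalization) kept 1 member. The members' median there ran from -0.56 to -0.37 over its alternatives, and for PEO-IAA plus IAA minus 1 µM IAA from -0.32 to -0.15. Among single members, 239 values kept their side of the threshold, 7 passed newly and 4, all AT5G45670 with an array left out, no longer passed.

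The choice of members depended on single arrays. Leaving out each array of the rule gave 18 to 43 probe sets, the 43 without the first mock array, and 14 to 20 of the 20 members stayed. Only 3 members, the unnamed 264025_at, 260034_at and 262951_at, stayed in all 16 such choices. With all 5 mock arrays as 1 control 22 probe sets were chosen and 10 were members. Limits of -0.5 and -0.25, added after seeing the data, gave 7 and 70. The cause of these shifts was not tested. The 8 members with mean signals under 150 were not all the least certain. Their residual SD ran from 0.21 (260034_at) to 0.51 (247914_at). The largest among all members, 0.66, was that of 248636_at, with a mean signal of 169.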

Other observations

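Mock levels of some members differed between the sets of arrays, which the labels do not tie to a batch. Probe set 248636_at had 341 and 442 in mock replicates 4 and 5, and 204, 223 and 117 in mock replicates 1 to 3. Probe set 252965_at averaged 504 ± 5.14 in mock replicates 4 and 5 (SD, n = 2) and 251 ± 40.8 in mock replicates 1 to 3 (SD, n = 3).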
